A study of Mus musculus with 12 samples.

Results

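The levels of 10 core genes of the circadian clock were followed in the cortex of 12 mice: Arntl, Clock, Npas2, Per1, Per2, Per3, Cry1, Nr1d1, Nr1d2 and Dbp. They were taken by gene symbol from the table of normalized counts, which held 10 of 10 of them among 17202 genes. The question put to them was whether their levels differed between the groups, and whether they varied together from mouse to mouse, as a readout of the time at which the tissue was taken.

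The circadian clock is a loop of transcription that most cells of the body carry. ARNTL (also called BMAL1) pairs with CLOCK or, in the forebrain, with NPAS2, and the pair switches on the Per and Cry genes, whose proteins then shut the pair down. The same pair drives the nuclear receptors Nr1d1 and Nr1d2, which repress Arntl, and the output factor Dbp, so that Arntl and Dbp peak at opposite times of day in many tissues.

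There were 3 mice in each of 4 groups, named by treatment (VEH or VERCUR) and genotype (WT or CD). CD mice carried a heterozygous deletion from Gtf2i to Fkbp6, the mouse counterpart of the Williams-Beuren syndrome deletion, and WT mice did not, on a background labelled C57Bl6. VERCUR mice drank curcumin (60 mg/kg/day) with verapamil (10 mg/kg/day, a blocker of L-type calcium channels) from 8 weeks of age for 1 month by the labels, and VEH mice drank the vehicle alone. Age at dissection was labelled as 16 weeks in every group. The study's methods described male mice from a cross of the deletion line with a Thy1-YFP line, in which the Thy1 promoter drives a fluorescent protein in neurons, kept under alternating light and dark, with a younger age at death and a lower verapamil dose than the labels. Those methods also had the mice go through behavioral tests, with treatment continued until death, where the labels give 1 month. The hour of dissection and the order in which the mice were taken are not given in the sources used here.

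Each library held 40290000 to 56480000 reads counted in genes, as recovered from the steps of the values. All of 6 genes of the deleted interval (Gtf2i, Gtf2ird1, Clip2, Limk1, Stx1a and Baz1b) were lower in every CD mouse than in every WT mouse, at 0.432 to 0.594 of the WT mean. The 5 markers of cortical excitatory neurons summed to 277795 to 348916 normalized counts per mouse. The 6 markers of striatal neurons were also detected in every mouse, and their sum fell into 3 separate levels of 4 mice each. It was 24114 to 32831 in mouse 3 of VEH-WT, mouse 1 of VEH-CD, mouse 3 of VERCUR-WT and mouse 1 of VERCUR-CD. It was 13853 to 15643 in the other 4 VEH mice and 7343 to 8860 in the other 4 VERCUR mice. The clock results below that moved with these levels are given within them. Of 5 markers of the suprachiasmatic nucleus, the master clock of the hypothalamus, only Vip was listed, which cortical interneurons also express. In tissue samples of this kind, fewer cells of a type and less RNA per cell cannot be told apart.

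The sequences around the start sites of 4 members are shown because they hold letters that the clock factors are known to bind. Windows of 250 bases before to 50 bases after each start, from RefSeq (GRCm38.p6), were found for 9 of 10 members, with 13 windows in all. Both strands were searched for the E-box CACGTG, to which the CLOCK pair binds, the D-box TTANGTAA of DBP and its relatives, the ROR element shared by the ROR and NR1D receptors (an A, any 2 bases, then TAGGTCA), and the cyclic AMP response element TGACGTCA. Capitals mark a match. The Arntl window lies at chr7:113207261-113207560 on the plus strand, Per1 at chr11:69098699-69098998 on the plus strand, Cry1 at chr10:85185005-85185304 on the minus strand and Per3 at chr4:151044616-151044915 on the minus strand.
Arntl: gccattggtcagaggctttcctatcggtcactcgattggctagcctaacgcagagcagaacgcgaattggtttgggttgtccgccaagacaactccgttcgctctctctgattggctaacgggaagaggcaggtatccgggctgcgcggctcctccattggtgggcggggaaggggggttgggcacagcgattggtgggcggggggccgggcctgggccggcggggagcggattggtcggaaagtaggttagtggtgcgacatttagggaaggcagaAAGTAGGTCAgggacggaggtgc
Per1: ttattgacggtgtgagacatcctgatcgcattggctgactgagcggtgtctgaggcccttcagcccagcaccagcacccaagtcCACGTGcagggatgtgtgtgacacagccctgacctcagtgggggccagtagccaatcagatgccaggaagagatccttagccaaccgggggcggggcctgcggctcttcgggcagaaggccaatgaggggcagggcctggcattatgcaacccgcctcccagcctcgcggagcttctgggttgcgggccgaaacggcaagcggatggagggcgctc
Cry1: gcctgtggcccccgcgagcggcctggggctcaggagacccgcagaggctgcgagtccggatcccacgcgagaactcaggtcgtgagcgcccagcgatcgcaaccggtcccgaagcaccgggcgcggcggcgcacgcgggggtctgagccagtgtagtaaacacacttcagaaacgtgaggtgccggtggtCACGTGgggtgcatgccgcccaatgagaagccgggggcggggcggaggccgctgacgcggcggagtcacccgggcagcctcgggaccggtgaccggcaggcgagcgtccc
Per3: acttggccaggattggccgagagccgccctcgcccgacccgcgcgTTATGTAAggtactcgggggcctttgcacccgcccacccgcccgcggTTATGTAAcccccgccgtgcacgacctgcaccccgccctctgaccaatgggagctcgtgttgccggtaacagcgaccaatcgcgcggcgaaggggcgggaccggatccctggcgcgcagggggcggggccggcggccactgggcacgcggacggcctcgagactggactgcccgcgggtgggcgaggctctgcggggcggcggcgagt
Arntl held a ROR element that began 27 bases after the start, a motif found in 0.7% of 32851 windows of the same length. Per1 held an E-box 166 bases before its start and Cry1 held one 60 bases before, a motif found in 7.15% of windows. Per3 held a D-box 205 and another 158 bases before its start, and 2.32% of windows held one or more. The cyclic AMP response element was in 1.79% of windows and in none of the 13 windows of members. Over the members, the E-box was in 2 of 9 and in 2 of 13 windows. The D-box and the ROR element were each in 1 of 9 members and 1 of 13 windows. The remaining windows, among them the other window of Arntl and of Per1 and those of Dbp, Nr1d1 and Nr1d2, held no match. These matches describe letters in a window and were not tied to any level measured here.

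The members were all well expressed, with group means from 643 (Cry1 in VEH-CD) to 7478 normalized counts (Nr1d1 in VEH-WT). Divided by exon length, so that genes can be compared, the order over 12 mice ran from Nr1d1 (2238 ± 338 normalized counts per kb, SD) and Dbp (1676 ± 281) through Per1 (938 ± 358), Nr1d2 (775 ± 94.7) and Npas2 (535 ± 27.3) to Clock (253 ± 34.4), Per2 (222 ± 88.3), Cry1 (208 ± 30.5), Arntl (186 ± 19.0) and Per3 (135 ± 12.4). The median gene stood at 161 per kb. Neighbours in this order overlapped in their ranges over mice, except that every mouse had more Nr1d2 than any had Npas2, and more Npas2 than any had Clock.

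Among the activators, Arntl (chr7:113207465-113314126) had 1580.4, 1412 and 1307 normalized counts in VEH-WT mice 1 to 3, and 1343, 1679 and 1471 in VEH-CD. It had 1252, 1483 and 1171 in VERCUR-WT and 1295, 1447 and 1343 in VERCUR-CD. All 4 groups overlapped, with the highest value in mouse 2 of VEH-CD and the lowest in mouse 3 of VERCUR-WT. Clock (chr5:76209868-76304792), the histone acetyltransferase partner of ARNTL, had 3414, 3673 and 3836 in VEH-WT and 3065, 3414 and 3061 in VEH-CD. It had 3642, 3358 and 3345.5 in VERCUR-WT and 2911, 4710 and 3271 in VERCUR-CD. Every VEH-CD mouse was below every VEH-WT mouse, although the nearest pair differed by less than 1 count, and mouse 2 of VERCUR-CD stood above all others. Npas2 (chr1:39193731-39363236), the forebrain paralog of Clock, was the steadiest member. Its values were 2539, 2339 and 2710.0 in VEH-WT, and 2476, 2771 and 2596 in VEH-CD. They were 2535, 2699 and 2505 in VERCUR-WT, and 2444, 2695 and 2468 in VERCUR-CD. Its 4 groups overlapped.

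Among the repressors, Per1 (chr11:69095217-69109960), a period gene that light, hormones and neuronal activity also induce, had 6254, 10644 and 5218 normalized counts in VEH-WT and 3844, 4479.5 and 3194 in VEH-CD. It had 4514, 3607 and 5106 in VERCUR-WT and 6367, 3808 and 6322 in VERCUR-CD. All 3 VEH-WT mice were above all VEH-CD and all VERCUR-WT mice, and VERCUR-CD overlapped every other group. Per2 (chr1:91415982-91459324), the period gene most tied to the core loop, had 990, 2506 and 1513 in VEH-WT and 993, 1461 and 647 in VEH-CD. It had 1358, 1985 and 922 in VERCUR-WT and 934, 1229 and 1089 in VERCUR-CD. Its mice differed up to 3.87 times, the widest range of any member, and the groups overlapped.

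Per3 (chr4:151003652-151044665), another period gene with a lesser role in the loop, had 1208, 1454 and 1347 in VEH-WT and 1225, 1292 and 1073 in VEH-CD. It had 1399, 1299 and 1188 in VERCUR-WT and 1271, 1503 and 1292 in VERCUR-CD. The groups overlapped, with mouse 2 of VERCUR-CD highest and mouse 3 of VEH-CD lowest. Cry1 (chr10:85131700-85185064), a cryptochrome that represses the CLOCK pair, had 694, 796 and 777 in VEH-WT and 574, 850.3 and 504 in VEH-CD. It had 707, 789 and 607 in VERCUR-WT and 669, 724 and 633 in VERCUR-CD. The highest and the lowest Cry1 values of all 12 mice were both in VEH-CD.

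Of the nuclear receptors, Nr1d1 (chr11:98767932-98775333) had 6407, 9180.4 and 6846 in VEH-WT and 7312, 5729.8 and 6603 in VEH-CD. It had 6147, 5679 and 7795 in VERCUR-WT and 6881, 6051 and 8006 in VERCUR-CD, with the highest value in mouse 2 of VEH-WT and overlap of all groups. Nr1d2 (chr14:18204054-18239127) had 3609, 4676 and 4600.4 in VEH-WT and 4024, 3911 and 3804 in VEH-CD. It had 4412, 3708 and 4257 in VERCUR-WT and 3742, 5374 and 4195 in VERCUR-CD, and the groups overlapped. Dbp (chr7:45705088-45710203), a PAR bZIP transcription factor that passes the rhythm on to output genes, had 3886, 5786 and 5480.0 in VEH-WT and 6116, 3618 and 4675 in VEH-CD. It had 4820.3, 4365 and 6208 in VERCUR-WT and 5445, 4504 and 5293 in VERCUR-CD, again with overlap of all groups.

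On the GRCm38 annotation (GENCODE M21), 263 of the 3077 exon bases of Nr1d1 (8.55%) are shared with Thra on the opposite strand, and 539 of the 2993 exon bases of Dbp (18.0%) with Sphk2 on the opposite strand. Thra averaged 39077 normalized counts and Sphk2 averaged 1399. How reads were assigned to strands is not given in the sources used here, so reads in these stretches cannot be told apart.

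**Figure D1:**
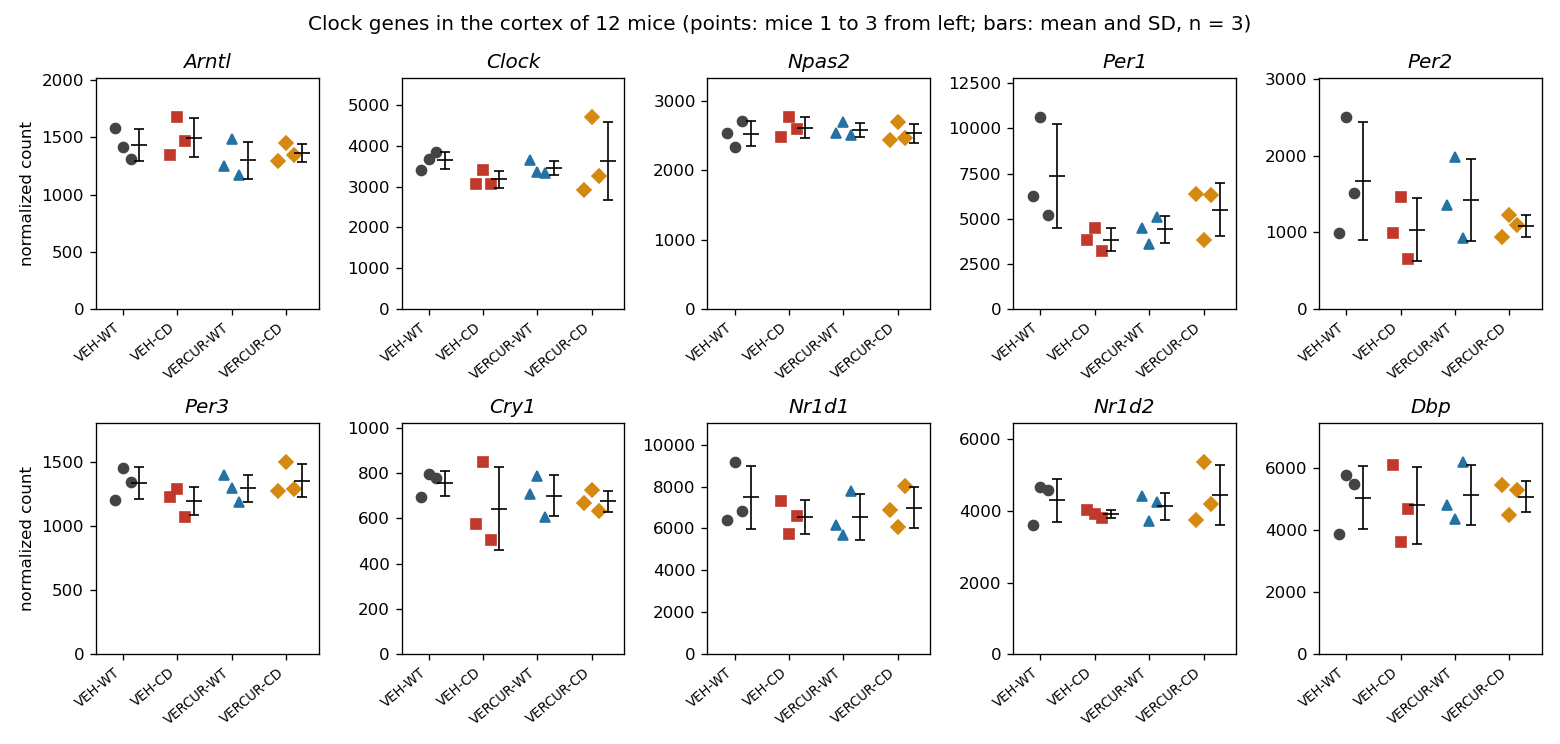
Normalized counts (vertical axes, from 0) of each clock gene in the 4 groups. Points are mice 1 to 3 from left to right, and bars give the mean and SD (n = 3 mice). Per1 in VEH-WT is 5218 or more in every mouse, above all mice of VEH-CD and VERCUR-WT, while Arntl, Npas2 and Dbp overlap across all groups.

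No single mouse was extreme in all members. Mouse 2 of VEH-WT was highest in Per1, Per2 and Nr1d1 and was above the mean of 12 mice in 9 of 10 members. Mouse 2 of VEH-CD was highest in Arntl, Npas2 and Cry1 and lowest in Dbp. Mouse 2 of VERCUR-CD was highest in Clock, Per3 and Nr1d2. Mouse 3 of VEH-CD was lowest in 4 members, among them Per1, Per2 and Cry1.

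A contrast of the 6 targets (Per1, Per2, Per3, Nr1d1, Nr1d2 and Dbp) minus the 3 activators (Arntl, Npas2 and Clock) was taken per mouse as a description, as the mean log2 deviation from the average of 12 mice. It was -0.17, 0.53 and 0.07 in VEH-WT and 0.02, -0.24 and -0.32 in VEH-CD. It was 0.03, -0.11 and 0.12 in VERCUR-WT and 0.13, -0.21 and 0.15 in VERCUR-CD. Each group thus held mice on both sides of 0.

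**Figure D2:**
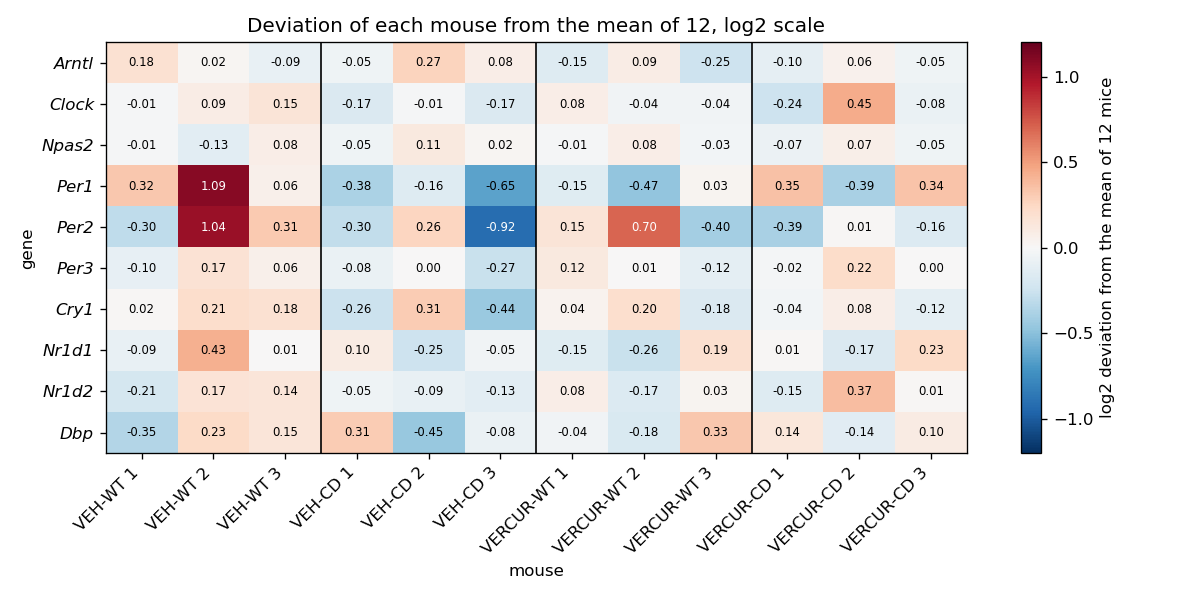
Log2 deviation of each mouse (columns, grouped) from the mean of 12 mice for each clock gene (rows), printed in each cell, with red above and blue below the mean. Mouse 2 of VEH-WT stands at 1.09 for Per1 and 1.04 for Per2, and mouse 3 of VEH-CD at -0.65 and -0.92.

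The spread between mice of one group was wide for these genes. The residual SD on the log2 scale had a median of 0.21 over the members, against 0.14 over all 17111 genes tested, and 7 of 10 members were above that value. Per2 (0.53), Per1 (0.38) and Dbp (0.29) had the widest spread and Npas2 (0.08) the narrowest. Against the 9688 genes with a mean of at least 500, a limit chosen after the values were seen, 9 of 10 members were above the median of 0.10.

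The first comparison asked what the deletion did under vehicle. No clock gene passed the test between VEH-CD and VEH-WT (0 of 10, limma with Benjamini-Hochberg adjustment over all genes and a fold change above 1.25 or below 0.75), where 0.257% of all genes were called. At an unadjusted p under 0.05, 1 of 10 was lower, against 6.73% of all genes in that direction and 11.8% in either direction. The median log2 fold change of the members was -0.17 and that of all genes was -0.00276, with 8 of 10 members below 0.

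Per1 had the largest difference in this comparison. Its group means were 3839 ± 643 in VEH-CD and 7372 ± 2881 in VEH-WT (SD, n = 3 mice each), a log2 fold change of -0.89 (SE 0.25) with an adjusted p of 0.213 by limma with Benjamini-Hochberg adjustment. The groups did not overlap, as held for 20.6% of all genes in either direction and for 11.4% in the lower direction. Leaving out 1 mouse at a time gave log2 fold changes from -1.10 to -0.59, the smallest without mouse 2 of VEH-WT. Clock also did not overlap, with a log2 fold change of -0.20 (SE 0.13) and an adjusted p of 0.593 by limma with Benjamini-Hochberg adjustment. The other 8 members overlapped, with log2 fold changes from -0.67 (Per2) to 0.06 (Arntl). The unadjusted 95% interval was widest for Per2, from -1.43 to 0.10, and narrowest for Npas2, from -0.11 to 0.20.

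Under the drugs, the same comparison was made between VERCUR-CD and VERCUR-WT, with no member called. In it, 0 of 10 members passed the test in limma, where 0.146% of all genes were called, and 0 of 10 had an unadjusted p under 0.05, where 4.1% of all genes did. No member was without overlap, against 7.74% of all genes. Log2 fold changes ran from -0.33 (Per2) to 0.29 (Per1), with a median of 0.05.

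The treatment comparison asked what the drugs did in each genotype. In WT mice, 0 of 10 members were called by limma between VERCUR-WT and VEH-WT, where 0% of all genes were called, and 1 of 10 had an unadjusted p under 0.05, where 5.22% of all genes did. Per1 had 4409 ± 755 normalized counts in VERCUR-WT against 7372 ± 2881 in VEH-WT (SD, n = 3 mice each), and the 3 mice of each group did not overlap, as held for 9.72% of all genes in either direction and 5.25% in the lower one. The log2 fold change was -0.69 (SE 0.25), with an adjusted p of 0.944 by limma with Benjamini-Hochberg adjustment. It ran from -0.90 to -0.39 when 1 mouse was left out, and was -0.39 without mouse 2 of VEH-WT. The other 9 members lay between -0.20 and 0.03.

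In CD mice, 0 of 10 members were called by limma between VERCUR-CD and VEH-CD, where 0% of all genes were called, and 0 of 10 had an unadjusted p under 0.05, where 3.54% of all genes did. No member was without overlap, against 8.34% of all genes. Per1 averaged 5499 ± 1465 in VERCUR-CD against 3839 ± 643 in VEH-CD (SD, n = 3 mice each), with a log2 difference of 0.49 and an unadjusted 95% interval from -0.06 to 1.04. The other 9 members lay between -0.13 (Arntl) and 0.18 (Per3). Against VEH-WT, 0 of 10 members were called in VERCUR-CD by limma, where 0.199% of all genes were, and 0 of 10 had an unadjusted p under 0.05, where 8.68% of all genes did. These comparisons share their control mice, so their values are not independent.

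Whether the drugs acted differently in the 2 genotypes was tested as the interaction. No clock gene passed it (0 of 10 by limma, with 0% of all genes called), and 1 of 10 had an unadjusted p under 0.05, where 6.05% of all genes did. That gene was Per1, with an interaction of 1.18 on the log2 scale (SE 0.36) and an adjusted p of 0.816 by limma with Benjamini-Hochberg adjustment. A test for any difference among the 4 groups called 0 of 10 members in limma, where 0.222% of all genes were called. At an unadjusted p under 0.05 it had 1 of 10, again Per1, where 6.93% of all genes did.

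**Figure D3:**
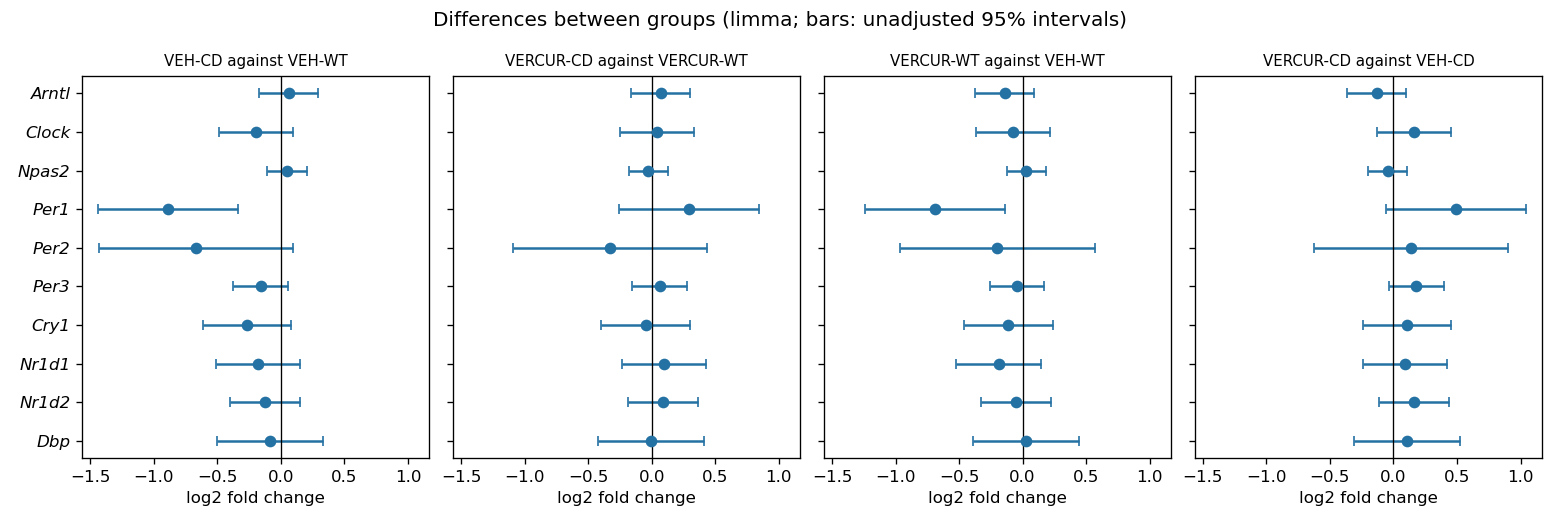
Log2 fold changes (horizontal axes) of the clock genes in 4 comparisons, fitted by limma, with unadjusted 95% intervals as bars. The bars of Per1 leave 0 out in VEH-CD against VEH-WT (-1.44 to -0.33) and in VERCUR-WT against VEH-WT (-1.24 to -0.14), and all other bars include 0.

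Per1 was set beside 10 activity-dependent genes (Fos, Fosb, Junb, Egr1, Egr2, Arc, Npas4, Nr4a1, Dusp1 and Sik1), which neurons switch on within minutes of firing. In VEH-CD against VEH-WT, all 10 of these had negative log2 fold changes, with a median of -1.36, and 8 of 10 had an unadjusted p under 0.05, against 6.73% of all genes in that direction. Of the 10, 1 was called (0.257% of all genes), Sik1, at a log2 fold change of -1.60 and an adjusted p of 0.0285 by limma with Benjamini-Hochberg adjustment. That call was lost without mouse 2 or 3 of VEH-WT or any 1 mouse of VEH-CD, at adjusted p from 0.0594 to 0.175. Over the 12 mice, Per1 and the mean log2 deviation of these genes had a Pearson r of 0.77 (permutation p 0.00349, adjusted p 0.0523 by Benjamini-Hochberg over 30 relations) and a Spearman rho of 0.75 (permutation p 0.00701, adjusted p 0.107). Without mouse 1 of VEH-CD and mouse 2 of VERCUR-WT, r was 0.79. Within groups, as deviations from the group means, r was 0.55 (exact permutation p 0.0471, adjusted p 0.31), so the relation did not pass the adjustment in either form. The part of neuronal activity in the Per1 levels was not tested.

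Per2 was next to 8 temperature-responsive genes (Cirbp, Rbm3, Hspa1a, Hspa1b, Hspa8, Hsph1, Dnajb1 and Hspa5) in the same family of 30 relations, which was added after the values were seen. The list holds the cold-induced Cirbp and Rbm3, which had positive log2 fold changes in VEH-CD against VEH-WT, with 6 heat shock genes, which had negative ones, so its mean does not follow every member. The Pearson r of Per2 with that mean was 0.78 (permutation p 0.00188, adjusted p 0.0523 by Benjamini-Hochberg) and the Spearman rho 0.74 (permutation p 0.0082, adjusted p 0.107). It was 0.80 within groups (exact permutation p 0.0216, adjusted p 0.31) and 0.63 without mice 2 and 3 of VEH-WT. Mouse 2 of VEH-WT was highest in Per2 and in this list, at 1.04 and 0.48 on the log2 scale. With 9 glucocorticoid-responsive genes, Nr1d1 had an r of 0.63 (permutation p 0.0278, adjusted p 0.23 by Benjamini-Hochberg) and a rho of 0.55 (permutation p 0.071, adjusted p 0.426), and r was 0.53 without mice 2 and 3 of VEH-WT and 0.67 within groups (exact permutation p 0.0795, adjusted p 0.397). With the same list, Per1 had an r of 0.63 (permutation p 0.0354, adjusted p 0.23 by Benjamini-Hochberg) and a rho of 0.46 (permutation p 0.136, adjusted p 0.581), and r was 0.27 without mice 2 and 3 of VEH-WT. The relation of Per1 to this list therefore rested on those mice. With the temperature-responsive list, Per1 had an r of 0.64 (permutation p 0.0383, adjusted p 0.23 by Benjamini-Hochberg) and a rho of 0.11 (permutation p 0.736, adjusted p 0.817). Without mice 2 and 3 of VEH-WT that r was -0.09. Cry1 had an r of 0.56 (permutation p 0.0547, adjusted p 0.273) and a rho of 0.72 (permutation p 0.0107, adjusted p 0.107) with the temperature-responsive list.

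**Figure D4:**
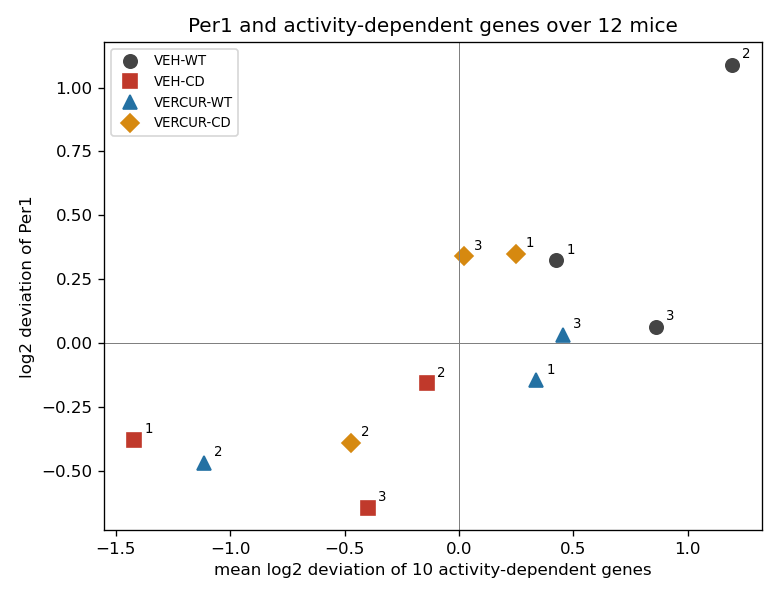
Log2 deviation of Per1 from the mean of 12 mice (vertical axis) against the mean log2 deviation of 10 activity-dependent genes (horizontal axis), 1 point per mouse with its number. The 3 VEH-CD mice lie below 0 on both axes and mouse 2 of VEH-WT lies farthest up, at 1.09 and 1.19.

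Some members varied together from mouse to mouse. Each of the 9 other members was compared with Arntl over the 12 mice, and only Dbp passed the test. Mice with more Arntl had less Dbp, from mouse 2 of VEH-CD, which had 1679 Arntl and 3618 Dbp counts, to mouse 3 of VERCUR-WT, which had 1171 and 6208. Pearson's r was -0.84 (permutation p 0.0006, adjusted p 0.0054 by Benjamini-Hochberg over 9 relations) and Spearman's rho -0.79 (permutation p 0.0029, adjusted p 0.0261). On deviations from the 4 group means r was -0.91 (exact permutation p 0.00386, adjusted p 0.0347). The other 8 members had r from -0.47 (Nr1d1) to 0.45 (Npas2) with Arntl.

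The relation of Arntl to Dbp rested in part on the mice at its ends. Without the 2 mice farthest from the median of Arntl, which are those 2 end mice, r was -0.69 (permutation p 0.029, n = 10), and the adjusted p of 0.261 no longer passed. Leaving out 1 mouse at a time kept r between -0.91 and -0.76, and without mouse 2 of VEH-CD alone the adjusted p was 0.0695 by permutation.

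It also moved with the striatal markers. The 4 mice with the highest striatal level had 5445 to 6208 Dbp counts and 1171 to 1343 Arntl counts, while the 4 of the middle level had 3618 to 5786 and 1412 to 1679, and the 4 of the lowest level 4365 to 5293 and 1252 to 1483. Among the 8 mice below the highest level, r was -0.76 (exact permutation p 0.0271, adjusted p 0.244 over 9 relations). On deviations from the means of the 3 levels it was -0.74 (exact permutation p 0.0158, adjusted p 0.142). The sign was the same within these levels, and the relation did not pass the adjustment there. The part of striatal tissue in these levels was not otherwise tested.

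All 45 pairs of members were tested as a family added after the values were seen. Of these, 10 pairs passed at an adjusted p under 0.05 by permutation with Benjamini-Hochberg adjustment, 8 of them with positive r and 2 with negative. The share of such pairs among other genes was not measured, so this count cannot be read as particular to clock genes. On deviations from the 4 group means, 0 of 45 passed after adjustment by the exact permutation test. On deviations from the 3 striatal levels, 3 of 45 pairs passed (Nr1d1 with Dbp, Clock with Nr1d2 and Clock with Per3), and among the 8 mice below the highest level 1 of 45 did (Npas2 with Nr1d1). The other negative pair was Npas2 with Nr1d1, at r -0.82 (permutation p 0.00099, adjusted p 0.0111) and rho -0.80 (permutation p 0.00219, adjusted p 0.0261). Mouse 2 of VEH-WT had the least Npas2 (2339) and the most Nr1d1 (9180.4). Without that mouse and mouse 2 of VEH-CD r was -0.66, within groups it was -0.82 (exact permutation p 0.0131, adjusted p 0.0984), and among the 8 mice below the highest striatal level it was -0.91 (exact permutation p 0.000868, adjusted p 0.0391). Within the 3 striatal levels it was -0.82 (exact permutation p 0.00637, adjusted p 0.0716), which did not pass.

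Nr1d1 and Dbp varied in the same direction over mice, at r 0.77 (permutation p 0.00361, adjusted p 0.0325) and rho 0.82 (permutation p 0.00193, adjusted p 0.0261). Their r was 0.86 without mouse 2 of VEH-WT and mouse 3 of VERCUR-CD, 0.82 within groups (exact permutation p 0.00463, adjusted p 0.0694), and 0.92 within the 3 striatal levels (exact permutation p 0.000145, adjusted p 0.00651). Among the 8 mice below the highest striatal level it was 0.82 (exact permutation p 0.0129, adjusted p 0.0904), which did not pass. Both are direct targets of the CLOCK pair in other tissues. Nr1d2, which the CLOCK pair also drives, had r 0.23 with Nr1d1 and 0.29 with Dbp. Neither passed, at adjusted p of 0.7 and 0.606 by permutation with Benjamini-Hochberg adjustment. Per1 was also positive with Nr1d1, at r 0.70 (permutation p 0.0103, adjusted p 0.0465) and rho 0.65 (permutation p 0.0252, adjusted p 0.103), and its r was 0.52 without mouse 2 of VEH-WT and mouse 3 of VEH-CD. The adjusted p of this pair was 0.198 within the striatal levels and 0.0904 among the 8 lower mice, by exact permutation.

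Per2, Per3 and Cry1 formed another set. Per2 and Cry1 had the highest r of all pairs, 0.85 (permutation p 0.00031, adjusted p 0.0111) with rho 0.87 (permutation p 0.00029, adjusted p 0.0131), and r was 0.80 without mouse 2 of VEH-WT and mouse 3 of VEH-CD. It was 0.81 within groups (exact permutation p 0.00463, adjusted p 0.0694). Per3 had r 0.74 (permutation p 0.00644, adjusted p 0.0362) and rho 0.80 (permutation p 0.00237, adjusted p 0.0261) with Per2. With Cry1, Per3 had r 0.71 (permutation p 0.00916, adjusted p 0.0458) and rho 0.69 (permutation p 0.0153, adjusted p 0.0982), which did not pass on ranks. The r with Per2 was 0.46 without the same mice. Within the striatal levels the adjusted p was 0.084 for Per2 with Cry1, 0.198 for Per2 with Per3 and 0.169 for Per3 with Cry1, by exact permutation, and none of the 3 passed among the 8 lower mice either. Dbp, by contrast, had r -0.06 with Per2 and 0.00412 with Per3.

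The last set was Clock, Nr1d2 and Per3, in which mouse 2 of VERCUR-CD was highest in each. Clock and Nr1d2 had r 0.84 (permutation p 0.00093, adjusted p 0.0111) and rho 0.63 (permutation p 0.033, adjusted p 0.107). Without that mouse and mouse 1 of VERCUR-CD their r was 0.64. Per3 had r 0.76 (permutation p 0.00473, adjusted p 0.0355) with Clock and 0.74 (permutation p 0.00585, adjusted p 0.0362) with Nr1d2. The rho was 0.75 with Clock (permutation p 0.00655, adjusted p 0.0491) and 0.66 with Nr1d2 (permutation p 0.0224, adjusted p 0.103), which did not pass on ranks. These r were 0.61 and 0.64 without mouse 2 of VERCUR-CD and mouse 3 of VEH-CD. Within the striatal levels the adjusted p was 0.0456 for Clock with Nr1d2, 0.0499 for Clock with Per3 and 0.0928 for Nr1d2 with Per3, and each was 0.0904 among the 8 lower mice, by exact permutation.

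**Figure D5:**
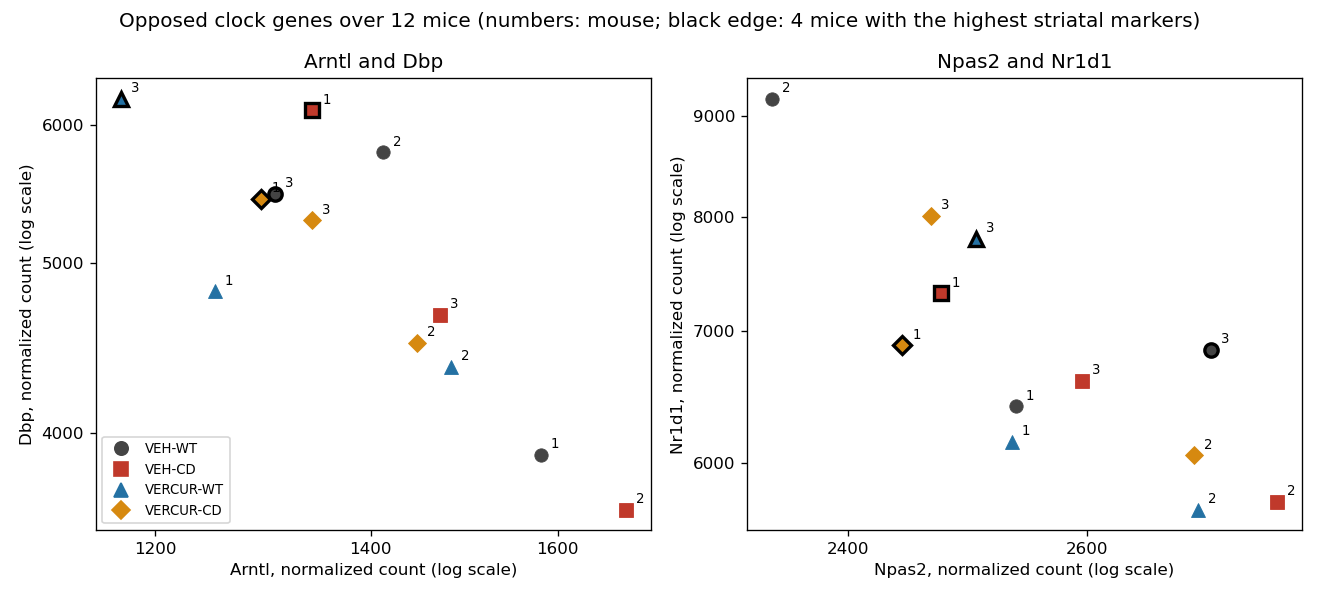
Dbp against Arntl (left) and Nr1d1 against Npas2 (right), in normalized counts on log axes, 1 point per mouse with its number, and a black edge on the 4 mice with the highest striatal markers. Both clouds fall from upper left to lower right, with r -0.84 and -0.82 over 12 mice, and mice of all 4 groups are spread along them.

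The genes most like Arntl over the 12 mice, among 14267 genes with a mean of at least 50, were Ccpg1 (r 0.92), Dnaja2 (0.90), Srp54a (0.83), Nars (0.82) and Gyg (0.81). At the other end stood Ttc39a (-0.85), Dbp (-0.84), Rps19-ps6 (-0.83), Hmgb3 (-0.83) and Gm8430 (-0.82). Dbp was thus second from the bottom of 14267 genes in its likeness to Arntl. With Dbp, the highest were Ripk2 (0.87), Ctla2a (0.86), Ciart (0.86), Epb41l4aos (0.85) and Wnk4 (0.85), and Nr1d1 ranked 14 from the top. The lowest were Srp54a (-0.85), Arntl (-0.84), Rbm15b (-0.82), Smap2 (-0.80) and Memo1 (-0.80). These values are descriptions over 12 mice, given with no test.

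The wider clock was read from 21 further genes (regulators, kinases and output factors), of which 0 passed the test in any of the 5 comparisons between groups by limma. At an unadjusted p under 0.05, 2 were higher in VERCUR-CD than in VERCUR-WT (2.19% of all genes in that direction). In VERCUR-WT, 3 were lower than in VEH-WT (3.25% in that direction). Between VERCUR-CD and VEH-CD, 4 were higher (2.09%), and between VERCUR-CD and VEH-WT 1 was higher (3.92%) and 3 were lower (4.76%). In VEH-CD against VEH-WT, 5 of 21 were lower at an unadjusted p under 0.05, against 6.73% of all genes in that direction, and the median log2 fold change was -0.13. Bhlhe40, a repressor of the CLOCK pair that activity also induces, had the lowest adjusted p. It had 7911, 12869 and 7853 counts in VEH-WT and 4560.0, 6282 and 4554 in VEH-CD, without overlap, at a log2 fold change of -0.87 (SE 0.18, adjusted p 0.0709 by limma with Benjamini-Hochberg adjustment). Without mouse 2 of VEH-CD it was the 1 gene of the 21 called, at -1.03 and an adjusted p of 0.0453 by limma with Benjamini-Hochberg adjustment. Bhlhe40 was weaker without mouse 2 of VEH-WT, at -0.64 and an adjusted p of 0.192 by the same test. Without mouse 1 or mouse 3 of VEH-CD it was -0.79 in each case, at adjusted p of 0.323 and 0.355.

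Nfil3, a repressor that competes with DBP for D-boxes, had 567, 598 and 473 counts in VEH-WT, and it was 346, 450.3 and 456 in VEH-CD and 383, 380 and 423 in VERCUR-WT, both without overlap with VEH-WT. Its log2 fold changes were -0.39 (SE 0.14) and -0.46 (SE 0.14), with adjusted p of 0.306 and 0.944 by limma with Benjamini-Hochberg adjustment. Of the ROR receptors, which activate Arntl, Rora and Rorb had log2 fold changes of -0.29 and -0.18 in VEH-CD against VEH-WT. They were 0.31 and 0.23 in VERCUR-CD against VEH-CD, and neither gene was called in either comparison. Rora had 2853, 2606 and 2919 counts in VEH-CD and 2852, 4305 and 3345 in VERCUR-CD. Rorb had 2150, 1989 and 2332 in VEH-CD and 2241, 2782 and 2583 in VERCUR-CD. Both genes thus overlapped between these groups, and mouse 2 of VERCUR-CD was the highest of all mice in each.

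Ciart, a repressor of the CLOCK pair, followed Dbp over mice and had 455, 1023 and 679 counts in VEH-WT and 628, 408 and 491 in VEH-CD. It had 563, 426 and 834 in VERCUR-WT and 713, 524 and 773 in VERCUR-CD, so the groups overlapped. Cry2, the second cryptochrome, and the PAR bZIP factors Tef and Hlf had log2 fold changes of -0.15, -0.02 and -0.12 in VEH-CD against VEH-WT. In VERCUR-CD against VEH-CD these were -0.02, 0.03 and 0.19. Timeless and the kinase gene Csnk1d had log2 differences of 0.32 and -0.16 in VERCUR-CD against VEH-WT, neither called.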

How the data were processed

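Libraries of mRNA from the cortex of 12 mice, 3 per group, were sequenced. The study's methods named the dissected part as frontal cortex. Reads were mapped by the authors with STAR 2.5.3a to GRCm38, and the values used here are the deposited normalized counts of the authors, with decimal commas, in which each count was divided by 1 factor per mouse. Dividing low values by the smallest step of each mouse gave whole numbers in 100% of cases (tolerance 0.1 reads) and 40290000 to 56480000 counted reads. The counting program is not given in the sources used here. Deposited tables of relative expression, in which each value is a ratio to the WT mean, were not used. Groups and numbers came from the sample titles, and the titles do not say whether mice shared a cage or litter.

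Genes with a mean of at least 10 (17111 of 17202) were fitted as log2(normalized count + 1) with limma 3.58.1 in R 4.3.3, with an intensity trend and 4 group means over all 12 mice, and p-values were adjusted by Benjamini-Hochberg over all genes. A gene was called at an adjusted p under 0.05 with a fold change above 1.25 or below 0.75 (adjusted p alone for the interaction and the test over 4 groups). Fold changes are on the log2(value + 1) scale. With 3 against 3 mice, an exact permutation test could not go below 0.1, so single members were tested only in the fit. Correlations used 100000 permutations over mice, or 1296 exact permutations within groups (scipy 1.17.1), two-sided. Each method was tested on simulated data. Exon lengths and positions came from GENCODE M21 and start windows from RefSeq. Fold changes were printed for members whose groups did not overlap or whose unadjusted p was under 0.05, with ranges for others. Further clock genes were named at an unadjusted p under 0.05 (at most 8), with Cry2, Ciart, Tef and Hlf. A result that met this rule is not reported here. The members and lists were chosen with earlier results of these data known.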

Additional observations from a re-analysis of the deposited data

How the results depend on the processing

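The count of clock genes called stayed at 0 in all 5 comparisons, in the interaction and in the test over 4 groups under every alternative run: pseudocounts of 0.1 and 5, no filter or a mean of at least 50, quantile normalization, centring, no intensity trend, only the groups compared, adjusted p alone, and each mouse left out. The striatal marker level as a term in the fit and the 4 mice with the highest level left out, both chosen after seeing the data, also gave 0. Same-numbered mice of different groups had correlations of their deviations from -0.35 to 0.27, with 4 of 18 pairs above 0.1. Mice of different groups with other numbers had -0.23 to 0.32, with 9 of 36 pairs above 0.1. The titles do not say whether same-numbered mice shared a cage or litter, and correlations from 3 mice per group cannot decide it. With the replicate number as a block, 0 clock genes were called and the log2 fold change of Per1 between VEH-CD and VEH-WT stayed at -0.89 (adjusted p 0.235 by limma with Benjamini-Hochberg adjustment). The 8 log2 fold changes printed with an adjusted p kept their sign in all 141 alternative values and their side of the threshold in 132. The other 9 were Bhlhe40 without mouse 2 of VEH-CD and 8 of 17 for Sik1, at adjusted p from 0.052 to 0.326 by limma with Benjamini-Hochberg adjustment (no intensity trend, the replicate block, the 4 mice with the highest striatal level left out, and each of mice 2 and 3 of VEH-WT and mice 1, 2 and 3 of VEH-CD left out). For Per1 between VERCUR-WT and VEH-WT, leaving out the 4 mice with the highest striatal level gave -1.02 and the term -0.62. Without those 4 mice, all VEH mice left were of the middle striatal level and all VERCUR mice left of the lowest. Treatment and striatal level therefore cannot be told apart in any comparison of VERCUR with VEH in that fit. Leaving out 1 mouse gave 0 to 1 further clock gene called between VEH-CD and VEH-WT, Bhlhe40 without mouse 2 of VEH-CD. The count of members correlated with Arntl was 1, and 0 to 1 when a mouse was left out, with 0 without mouse 2 of VEH-CD. It was 0 without the 2 mice farthest from the median of Arntl, 0 on deviations from the 3 striatal levels and 0 without the 4 mice of the highest level, in each case with fewer mice or permutations. Count tests by edgeR and DESeq2 on recovered reads were planned and not run, because the decimal commas kept the deposited values from being read as reads in the check of units. With 3 mice per group, the unadjusted 95% interval of Per2 between VEH-CD and VEH-WT ran from -1.43 to 0.10. The interval of Per1 left 0 out, at -1.44 to -0.33, and Per1 was still not called (adjusted p 0.213 by limma with Benjamini-Hochberg adjustment). Differences as large as that of Per1 could thus go uncalled.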

Other observations

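Beyond the clock, the 10 activity-dependent genes had their highest summed levels in VEH-WT mice. Their sum was 57259.7 to 96386 normalized counts in VEH-WT, 16360 to 38164 in VEH-CD, 27743 to 54460.3 in VERCUR-WT and 29636 to 49349.8 in VERCUR-CD, so that VEH-WT lay above the other groups in every mouse. In VERCUR-WT, all 10 had negative log2 fold changes against VEH-WT (median -0.90), and in VERCUR-CD all 10 had positive ones against VEH-CD (median 0.58). At an unadjusted p under 0.05 by limma these were 4 of 10 and 1 of 10, against 5.22% and 3.54% of all genes in either direction. In both comparisons 0 of the 10 were called, where 0% of all genes were. Mouse 1 of VEH-CD (-1.42) and mouse 2 of VERCUR-WT (-1.11) had the lowest mean log2 deviations of these genes. The 9 glucocorticoid-responsive genes summed to 12048 to 17975 in VEH-WT and to 10111 to 12730.0 in the other 3 groups. Of the 8 temperature-responsive genes, the 6 heat shock genes had negative and the cold-induced Cirbp and Rbm3 positive log2 fold changes in each of the other 3 groups against VEH-WT, from -0.92 for Hspa1b to 0.29 for Cirbp in VEH-CD.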
